A study of Mus musculus with 6 samples.

Results

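The genes described are 9 genes of pyruvate oxidation and the tricarboxylic acid (TCA) cycle in cultured mouse podocytes: Dld, Pdha1, Pdhb and Dlat, Dlst and Ogdh, and Cs, Idh3a and Mdh2. Every gene probe whose transcript accession belongs to one of these genes was taken, which gave 13 probes for these 9 of the 20659 genes with a symbol, out of 39429 gene probes on the array. All 13 passed the filter on dim probes, which left 25541 probes for the tests. The genes were selected on the measured signals of these arrays, with the comparison of the arrays labelled shTug1 against shControl already known. Their values in that comparison are therefore given as a description, without p-values for single genes. Counts of members past a threshold are likewise a description, and both support nothing by themselves.

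Pyruvate from glycolysis enters the mitochondrial matrix and is turned into acetyl-CoA by the pyruvate dehydrogenase complex. That complex and the 2-oxoglutarate dehydrogenase complex are built alike, from a decarboxylase, an acyltransferase that carries lipoic acid on a swinging arm, and dihydrolipoamide dehydrogenase, encoded by Dld, which re-oxidises the lipoyl arm and passes the electrons to NAD. Dld is shared with the branched-chain 2-oxoacid dehydrogenase complex and the glycine cleavage system. Podocytes cover the capillaries of the glomerulus, and their foot processes depend on a supply of ATP to the actin cytoskeleton.

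The cells were mouse podocytes immortalised with a temperature-sensitive SV40 T antigen, expanded at 33 °C and then kept at 37 °C for 10 days to differentiate. The 6 one-colour arrays fall into 3 groups of 2 replicates, described as biological: shTug1 clone 2 and shTug1 clone 3, both transduced with a lentiviral pGIPZ hairpin against the long noncoding RNA Tug1, and shControl, transduced with a scrambled hairpin in the same vector. Each shTug1 group is thus 1 clone of an immortalised line. The question is which transcripts differ between podocytes with the Tug1 hairpin and those with the scrambled one.

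Levels are given on a log2 scale relative to the array's own 75th percentile, so that 0 is the signal at that percentile. A level is compared only within its own probe. That percentile itself was 1055 and 949.3 intensity units in clone 2 and 569.2 and 831.6 in clone 3, against 324.3 and 363.3 in shControl. The signal that marks the brightest 1% of gene spots overlapped between the groups (82941 to 96435 in the clones, 65859 and 93053 in shControl), and no gene spot was saturated. Scaling on the 75th percentile gave the mean of the clones a median log2 fold change of −0.57 over all probes. That median was −0.21 after quantile normalization, −0.28 after centring on the median and 0.70 with no scaling. Both shControl arrays were on 1 slide and the 4 arrays labelled shTug1 on the other, so that slide and hairpin cannot be told apart. The replicates correlated at 0.981 in clone 2, 0.989 in clone 3 and 0.961 in shControl across probes, and shControl replicate 1 stood apart on the first principal component, at −193.1, against −63.5 for shControl replicate 2. The Tug1 probe that was well above background on all 6 arrays (A_52_P599162) read −1.86 and −1.88 in clone 2 and −3.10 and −3.23 in clone 3, against −2.88 and −2.49 in shControl. It was thus lowest in clone 3 and highest in clone 2, with a log2 difference of 0.16 for the mean of the clones (limma adjusted p = 0.654). A second Tug1 probe (A_51_P119401) read −2.73 and −2.94 in clone 2 and −6.36 and −3.58 in clone 3, against −6.21 and −6.38 in shControl, and was well above background on neither shControl array and on 1 of clone 3. Against the lowest signal well above background on the shControl arrays, it was at least 2.76-fold higher in clone 2. The same bound for the mean of the clones was 1.31-fold, and these bounds were not tested. On the measured values, with shControl not well above background, the log2 difference was 2.39 for the mean of the clones. This probe entered the tests through clone 2, where it is high, so that difference is a description. Since these values go against a lower Tug1 level in the arrays labelled clone 2, the groups are named here as the arrays are labelled.

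Of 14 podocyte marker genes, 13 or 14 were above background on every array, with a summed signal of 8.0 to 8.44 (log2) in the clones, against 8.72 and 8.86 in shControl. Nphs1, which encodes nephrin of the slit diaphragm, read −4.41 and −4.71 in clone 2 and −3.68 and −3.89 in clone 3, against −2.34 and −3.71 in shControl. Wt1, a podocyte transcription factor, read −3.14 and −3.43 in clone 2 and −3.63 and −3.20 in clone 3, against −1.99 and −2.04 in shControl. The 2 probes of Synpo, an actin-binding protein of foot processes, had log2 fold changes of opposite sign, −1.25 and 2.41. Of 8 mesangial and stromal markers 5 or 6 were detected per array (Des and Pdgfra on none), with summed signals of 7.75 to 8.33 in the clones, against 9.11 and 9.14 in shControl. Of 8 endothelial markers 5 or 6 were detected (Tek and Emcn on none), with sums of 0.18 to 0.66 in the clones, against 0.90 and 1.78 in shControl. Between 6 and 8 of 10 tubular and parietal markers were detected (Krt8 and Slc12a1 on none), with sums of 4.99 to 5.77 in the clones, against 6.74 and 6.78 in shControl. Of the 7 immune markers on the array 5 or 6 were detected (Lyz2 on none), with sums of 1.83 to 2.52 in the clones, against 3.84 and 4.90 in shControl. All 5 marker sums were lower on every clone array than on both shControl arrays at this scaling, and their part in the results below was not tested. A lower signal from a whole culture does not tell fewer cells of a type apart from less RNA per cell.

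RefSeq promoter windows (build GRCm38.p6, the 250 bases before a listed start, on the strand of the gene) were found for 8 of the 9 genes. Those of the pyruvate dehydrogenase genes are shown because Dld and Pdha1 had the largest differences of the 9 genes between clones and shControl. Pdhb and Dlat, which encode partners in the same complex, had smaller differences of the other sign at this scaling. Capitals mark the core of the CREB site, TGACG, and of the NRF1 site, GCATGCG, read on either strand. The windows are chr12:31351472-31351721 for Dld, chrX:160138431-160138680 for Pdha1, chr14:8172993-8173242 for Pdhb and chr9:50659781-50660030 for Dlat, all on the minus strand, and the listed Pdhb start lies inside the span given for that gene.
Dld: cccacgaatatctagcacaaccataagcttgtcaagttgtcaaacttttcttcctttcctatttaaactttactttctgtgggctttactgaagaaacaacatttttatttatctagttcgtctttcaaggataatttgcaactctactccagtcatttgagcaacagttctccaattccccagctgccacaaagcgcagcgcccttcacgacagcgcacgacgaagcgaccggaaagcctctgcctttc
Pdha1: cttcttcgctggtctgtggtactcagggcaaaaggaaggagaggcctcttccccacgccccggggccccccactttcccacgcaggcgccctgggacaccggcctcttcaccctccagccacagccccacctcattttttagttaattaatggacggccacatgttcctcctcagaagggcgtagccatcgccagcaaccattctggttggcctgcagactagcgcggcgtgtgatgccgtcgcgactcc
Pdhb: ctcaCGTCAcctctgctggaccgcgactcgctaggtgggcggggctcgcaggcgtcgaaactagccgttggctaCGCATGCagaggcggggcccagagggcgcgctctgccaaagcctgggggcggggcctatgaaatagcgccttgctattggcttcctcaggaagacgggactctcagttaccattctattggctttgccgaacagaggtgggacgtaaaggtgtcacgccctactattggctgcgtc
Dlat: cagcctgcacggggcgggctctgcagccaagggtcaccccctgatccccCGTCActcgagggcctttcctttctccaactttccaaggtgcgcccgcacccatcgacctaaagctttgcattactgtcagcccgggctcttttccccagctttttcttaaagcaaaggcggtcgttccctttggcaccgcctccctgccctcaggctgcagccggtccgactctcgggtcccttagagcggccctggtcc

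The windows of these 4 genes differed in composition. The Dld window had 43.6% G and C and 10 CpG pairs, while those of Pdha1 and Pdhb both had 61.6% with 15 and 20 CpG pairs, and that of Dlat had 62.8% with 15. The median of 32841 mouse windows was 52.4% with 6 CpG pairs. Both strands were searched for 4 motif cores. The ERR core AAGGTCA and the ETS core CCGGAAG were in no window of the 8 genes, and occurred in 4.08% and 6.91% of all windows. The NRF1 core GCATGCG, whose strands largely overlap each other, occurred in windows of 2 of the 8 genes (Pdhb and Ogdh) and in 3.02% of all windows. A longer form of that site (GCGC, any base, then TGCGC) was searched first and occurred in windows of 0 of the 8 genes and in 3.74% of all windows. The shorter core was adopted after that result was known, so that which of these genes hold an NRF1 match depends on the form searched. TGACG occurred in windows of 4 of the 8 genes (Pdhb, Dlat, Ogdh and Mdh2) and in 17.8% of all windows. The 8 genes had 13 windows, several of them for Ogdh, so counts by gene and shares by window are unlike measures. These windows held 9 to 35 CpG pairs, against the median of 6 for all windows, and TGACG contains CG. No excess of a core is therefore read from these counts. Neither the Dld nor the Pdha1 window shown held any of the 4 cores.

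All 4 clone arrays lay above both shControl arrays for 5 of the 13 probes (Dld, Pdha1, Dlst and Idh3a) and below both for the other 8 (Pdhb, Dlat, Ogdh, Cs and Mdh2) at this scaling, where the difference of Mdh2 turns sign after quantile normalization and those of Mdh2, Cs, Pdhb, Dlat and 2 Ogdh probes with no scaling. Over all probes tested, 14.0% lay wholly above and 40.2% wholly below. Counted by the brightest probe of each gene, 4 of the 9 genes were higher and 4 lower past an adjusted p of 0.05 (limma) in the mean of the clones. Dlat was in neither count. Pdha1, counted as higher, was well above background on 1 of 2 shControl arrays and entered the tests through the clone arrays. It was absent under a filter requiring all 6 arrays and from the series values, and Dlst did not pass with no filter on dim probes. Over the brightest probes of all 21470 genes, 10.0% passed as higher and 29.6% as lower. In clone 2 alone 3 of the 9 were higher and 4 lower, beside 10.1% and 33.1% of all genes, and in clone 3 alone 4 were higher and 0 lower, beside 4.24% and 4.53%. The genes were chosen with these contrasts known, so nothing is read from their shares or from which calls stay or change below. The share of all probes that passed as lower was 27.6% at this scaling and 14.4% after quantile normalization. The 4 lower calls also changed with the scaling. By the brightest probe 0 of the 9 genes passed as lower after quantile normalization, in the deposited series values or with no scaling. A dimmer Ogdh probe (A_55_P2006277) still passed as lower after quantile normalization (−0.99) and in the series values (−0.96), though not with no scaling. They also changed with single arrays: 1 gene passed as lower without clone 2 replicate 1, and 0 without clone 2 replicate 2, without either clone 3 array or without shControl replicate 1. The 4 higher calls stayed at 4 without either shControl array and became 3 without either clone 2 array or clone 3 replicate 1, where Dlst was lost. Without clone 3 replicate 2 only Dld passed.

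**Figure D1:**
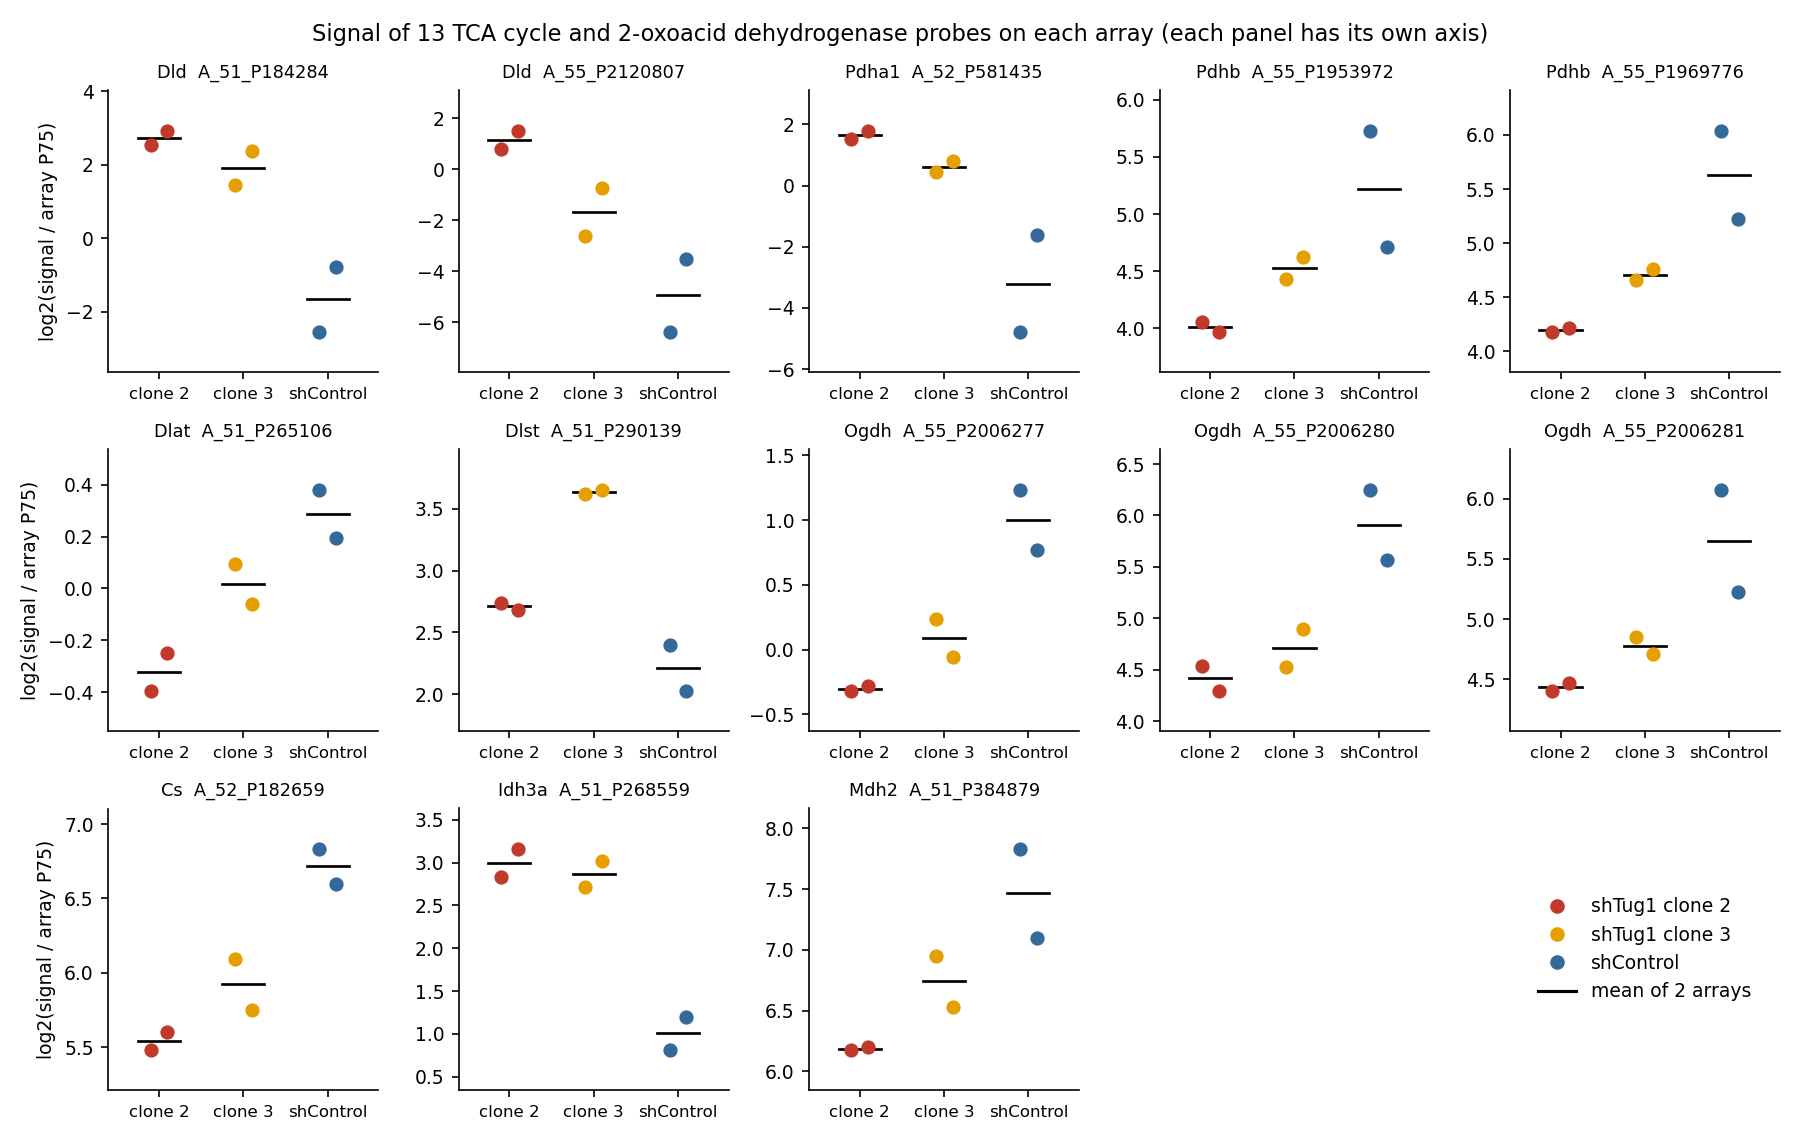
Levels of the 13 probes on the 6 arrays, as log2 signal relative to the 75th percentile of the array (vertical axis), by group (horizontal axis), each point 1 array and each bar the mean of 2. The clone arrays of Dld, Pdha1, Idh3a and Dlst lie above shControl and those of the other probes below it at this scaling. The sign for Mdh2 turns after quantile normalization and in the series values, and with no scaling the differences of Mdh2, Cs, Pdhb and Dlat and of 2 of the 3 Ogdh probes turn.

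Dld, on chromosome 12 (GRCm38.p6, 12:31331562-31351471), encodes the dihydrolipoamide dehydrogenase that the complexes share. Its brighter probe (A_51_P184284) read 2.54 and 2.92 in clone 2 and 1.46 and 2.38 in clone 3, against −2.55 and −0.78 in shControl. In intensity units these were 6148 and 7206 in clone 2 and 1566 and 4327 in clone 3, against 55.4 and 212 in shControl. All 4 clone arrays were high and did not overlap shControl, whose 2 arrays were themselves 1.77 apart on the log2 scale. The mean of the clones was 15.9-fold higher (log2 3.99, SE 0.53), with 4.40 (SE 0.61) in clone 2 and 3.58 (SE 0.61) in clone 3. The log2 difference came to 3.11 when shControl replicate 1 was left out and to 4.88 when shControl replicate 2 was.

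The second Dld probe (A_55_P2120807) read 0.82 and 1.51 in clone 2 and −2.62 and −0.74 in clone 3, against −6.38 and −3.52 in shControl. It was well above background on 1 of the 2 shControl arrays only, replicate 2. The clone arrays again lay above shControl without overlap, but clone 3 lay between clone 2 and shControl. The log2 difference was 4.69 (SE 0.82) for the mean of the clones, 6.12 in clone 2 and 3.27 in clone 3, and it was 2.37 with normexp background correction.

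Pdha1, on chromosome X (X:160122219-160138430), encodes the alpha subunit of the pyruvate decarboxylase, which carries the serines that pyruvate dehydrogenase kinases phosphorylate. Its probe (A_52_P581435) read 1.54 and 1.79 in clone 2 and 0.43 and 0.82 in clone 3, against −4.78 and −1.63 in shControl. The processed signals were 3056 and 3292 in clone 2 and 767 and 1464 in clone 3, against 11.8 and 117 in shControl, where only replicate 2 was well above background. The clone arrays were high and shControl replicate 1 was the lowest of the 6. The mean of the clones was 20.4-fold higher (log2 4.35, SE 0.76), with 4.87 (SE 0.88) in clone 2 and 3.83 (SE 0.88) in clone 3. That value came to 2.77 when shControl replicate 1 was left out, to 5.93 when shControl replicate 2 was, and to 2.82 with normexp.

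Pdhb, on chromosome 14 (14:8165991-8173303), encodes the beta subunit, which joins the product of Pdha1 in the decarboxylase. Its brighter probe (A_55_P1969776) read 4.18 and 4.21 in clone 2 and 4.65 and 4.76 in clone 3, against 6.04 and 5.23 in shControl. The clone arrays were lower without overlap on this scale, although their processed signals (19086 and 17580 in clone 2, 14329 and 22532 in clone 3) overlapped those of shControl (21328 and 13603). The mean of the clones differed by −1.18 (SE 0.33) on the log2 scale, by −0.35 after quantile normalization and by 0.091 with no scaling. The other probe (A_55_P1953972) read 4.05 and 3.97 in clone 2 and 4.44 and 4.62 in clone 3, against 5.73 and 4.71 in shControl. Its log2 difference was −0.95 (SE 0.36), and 0.32 with no scaling.

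Dlat, on chromosome 9 (9:50634633-50659780), encodes the acyltransferase that forms the core of the pyruvate dehydrogenase complex. Its probe (A_51_P265106) read −0.40 and −0.25 in clone 2 and 0.09 and −0.06 in clone 3, against 0.38 and 0.20 in shControl. The groups did not overlap, and the whole span of the 6 arrays was small beside that of Dld. The log2 difference of −0.44 (SE 0.28) was close to the median of all probes and became 0.83 with no scaling.

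Within the pyruvate dehydrogenase complex, the genes thus differed by unequal amounts. Taken as a difference of log2 values on the same array, which no constant scaling of an array can change, and set to 0 at the shControl mean, Dld over Pdhb stood at 5.66 and 6.01 in clone 2 and 4.10 and 4.92 in clone 3, against −1.29 and 1.29 in shControl. Relative to Pdhb, Dld was 36.1-fold higher in the mean of the clones, and 14.7-fold higher without shControl replicate 1. Pdha1 over Pdhb stood at 6.20 and 6.42 in clone 2 and 4.62 and 4.90 in clone 3, against −1.98 and 1.98 in shControl, a 46.3-fold difference that rests on a Pdha1 probe well above background on 1 of the 2 shControl arrays. Against that array alone, shControl replicate 2, the difference was 11.7-fold. Dld over Pdha1 differed by −0.36, and all 4 of its clone values (−0.53 to 0.02) lay inside the shControl span of −0.69 to 0.69. The 2 shControl arrays were far apart in these differences, and all 4 clone values of Dld over Pdhb lay above both. These genes were chosen on this comparison, so the differences within pairs are a description too.

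Dlst, on chromosome 12 (12:85110822-85134091), encodes the succinyltransferase core of the 2-oxoglutarate dehydrogenase complex. Its probe (A_51_P290139) read 2.74 and 2.68 in clone 2 and 3.62 and 3.65 in clone 3, against 2.40 and 2.03 in shControl. It was the only member probe for which clone 3 lay farther from shControl than clone 2 did. The mean of the clones was 1.95-fold higher (log2 0.96, SE 0.29), with 0.50 (SE 0.33) in clone 2 and 1.43 (SE 0.33) in clone 3. It was 1.45 after quantile normalization and 2.24 with no scaling.

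Ogdh, on chromosome 11 (11:6291597-6359094), encodes the decarboxylase of the same complex. Its brightest probe (A_55_P2006280) read 4.54 and 4.29 in clone 2 and 4.52 and 4.90 in clone 3, against 6.25 and 5.57 in shControl. Clone arrays were lower on this scale for all 3 probes, with log2 differences of −1.34 (SE 0.33), −1.04 (A_55_P2006281, SE 0.34) and −1.11 (A_55_P2006277, SE 0.30). After quantile normalization the values were −0.51, −0.21 and −0.99, and with no scaling −0.07, 0.23 and 0.17. Dlst over Ogdh, from the same array, stood at 1.89 and 2.09 in clone 2 and 2.80 and 2.45 in clone 3, against −0.16 and 0.16 in shControl. This 4.95-fold difference exceeded the spread between the replicates and does not depend on a constant scaling of the arrays. A shift that varies with signal is not removed by it. Both genes were chosen with their differences known, so the ratio is a description and supports nothing by itself.

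Cs, on chromosome 10 (10:128337727-128362482), encodes citrate synthase, which joins acetyl-CoA to oxaloacetate at the entry of the cycle. Its probe (A_52_P182659) read 5.48 and 5.60 in clone 2 and 6.09 and 5.75 in clone 3, against 6.83 and 6.60 in shControl. The processed signals ran the other way, at 47145 and 46063 in clone 2 and 38868 and 44841 in clone 3, against 36995 and 35174 in shControl. The log2 difference was −0.98 (SE 0.29), −0.07 after quantile normalization and 0.29 with no scaling.

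Mdh2, on chromosome 5 (5:135778649-135790386), encodes the mitochondrial malate dehydrogenase that regenerates oxaloacetate. Its probe (A_51_P384879) read 6.18 and 6.20 in clone 2 and 6.95 and 6.53 in clone 3, against 7.83 and 7.10 in shControl. The processed signals were 76252 and 69640 in clone 2 and 70374 and 76779 in clone 3, against 73905 and 49892 in shControl, with the clones inside or just above the control range. The log2 difference was −1.0 (SE 0.34), but 0.039 after quantile normalization, 0.052 in the deposited series values and 0.27 with no scaling. Cs over Mdh2, from the same array, differed by 0.02 between the clones and shControl, with clone values from −0.11 to 0.15 and shControl values of −0.25 and 0.25.

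Idh3a, on chromosome 9 (9:54586511-54604662), encodes the catalytic alpha subunit of the NAD-dependent isocitrate dehydrogenase. Its probe (A_51_P268559) read 2.83 and 3.16 in clone 2 and 2.71 and 3.01 in clone 3, against 0.81 and 1.20 in shControl. The clones overlapped each other and lay well above shControl, with replicate SDs of 0.23 in clone 2, 0.21 in clone 3 and 0.27 in shControl (n = 2 each). The mean of the clones was 3.80-fold higher (log2 1.92, SE 0.31), with 1.99 in clone 2 and 1.86 in clone 3. Among the member probes that were higher, Idh3a had one of the narrowest replicate spreads in shControl, beside Dlst.

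**Figure D2:**
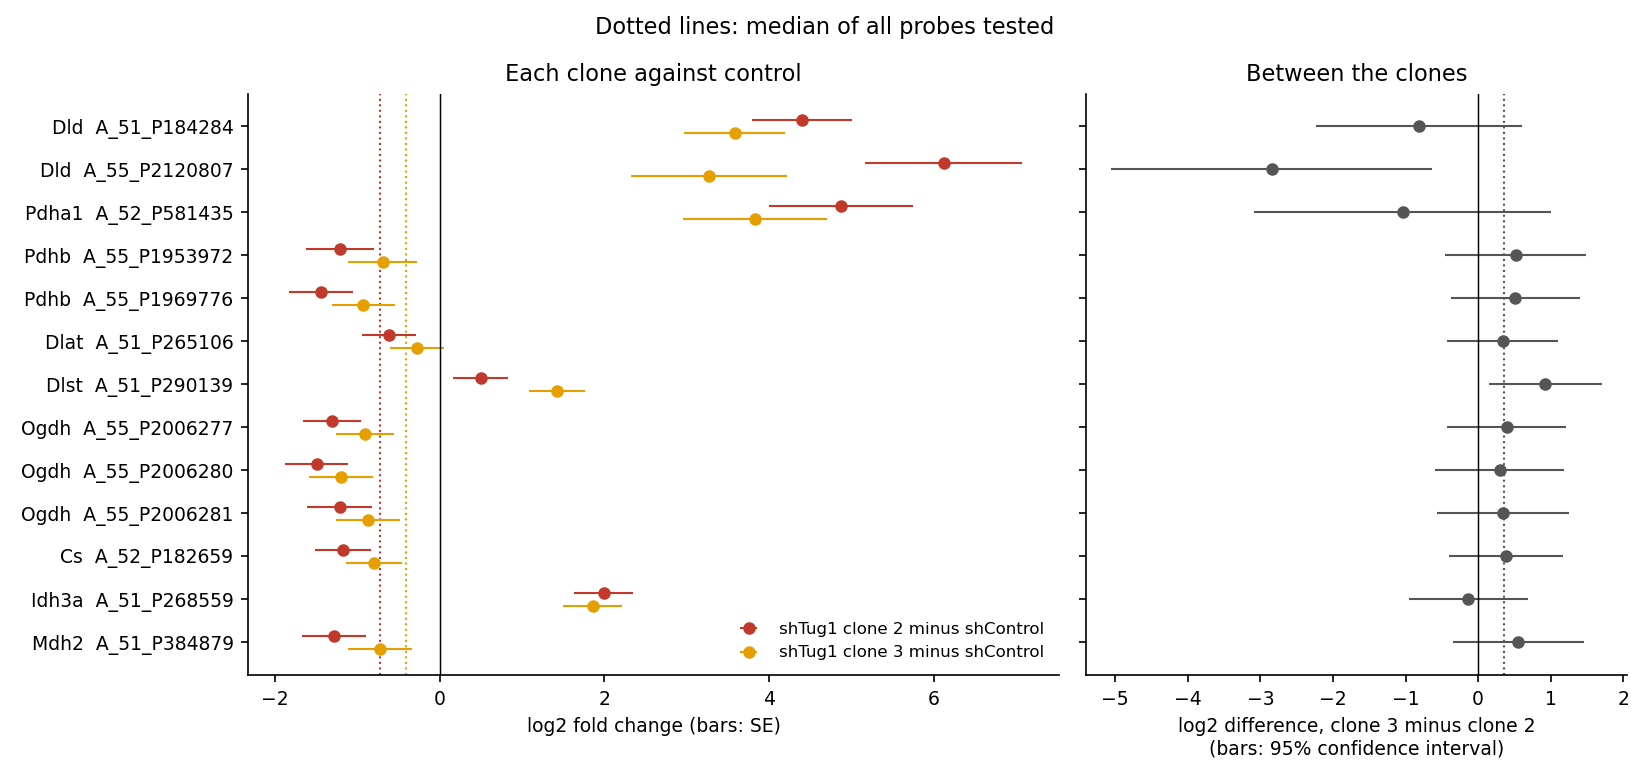
Log2 fold changes of each clone over shControl with SE (left) and log2 differences of clone 3 minus clone 2 with 95% confidence intervals (right) for the 13 probes, with dotted lines at the medians of all probes. Dld, Pdha1 and Idh3a lie far right of the dotted lines in both clones, and the 8 negative probes lie near them (the signs of Mdh2, Cs, Pdhb, Dlat and 2 Ogdh probes turn with no scaling, and that of Mdh2 after quantile normalization).

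**Figure D3:**
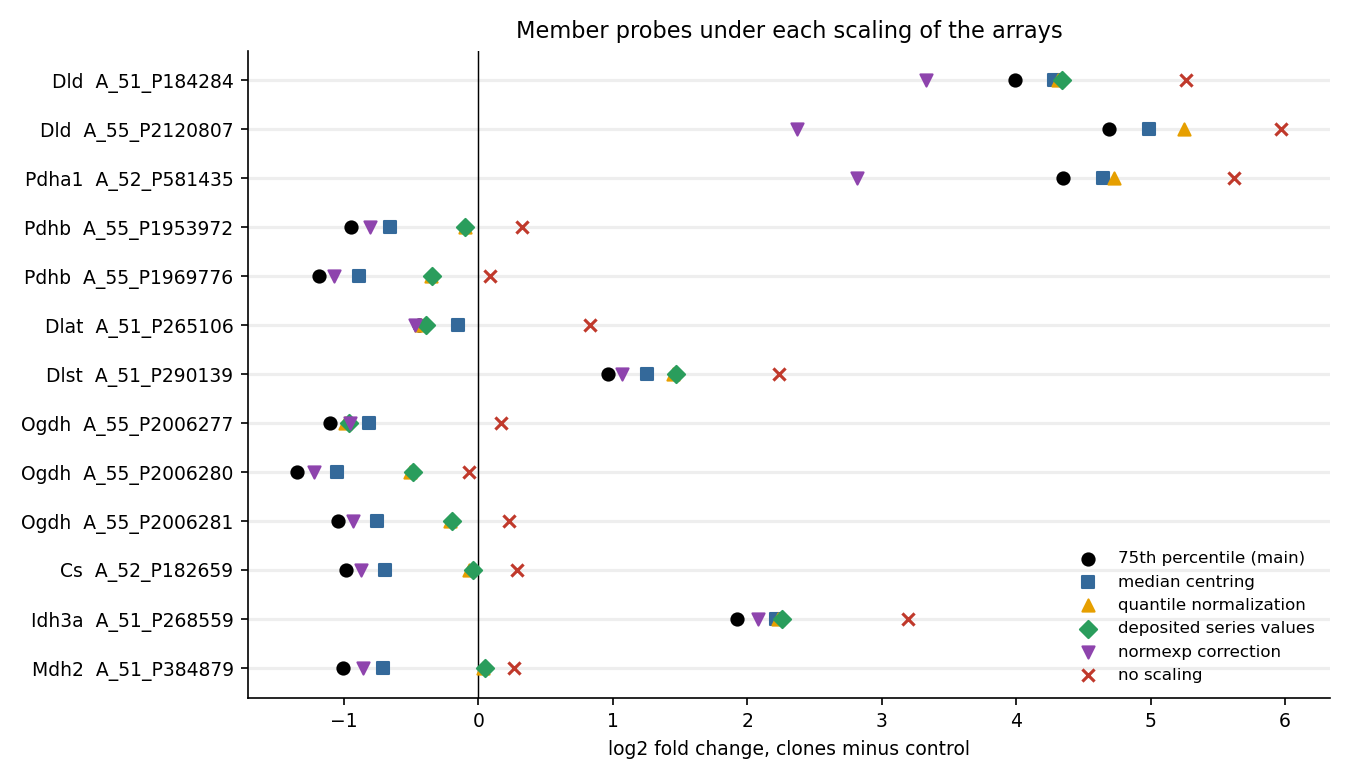
Log2 fold change of the clones over shControl (horizontal axis) for the 13 probes (down the page), 1 symbol for each scaling or background correction tried, with no symbol for the deposited series values of the second Dld probe and of Pdha1. The brighter Dld probe stays between 3.33 and 5.26 and Idh3a between 1.92 and 3.20, while Mdh2, Cs, Pdhb, Dlat and 2 of the 3 Ogdh probes lie on either side of 0 depending on the scaling.

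The separation of the 13 probes followed the order of the arrays seen over the whole table. For 12 of the 13 probes shControl replicate 1 lay farther from the clones than shControl replicate 2 did, Dlst being the exception, and over all probes this held for 81.2%. Clone 2 was farther from shControl than clone 3 for 12 of the 13 probes, again with Dlst as the exception, and for 73.3% of all probes. The difference between clones and shControl also varied with signal over the whole array. In the top decile of probes by signal (decile 10) the median log2 difference was −1.09, and 56.7% of probes passed as lower, whereas in decile 7 the median was −0.28 and 24.4% passed as lower. Mdh2, Cs, both Pdhb probes and 2 of the 3 Ogdh probes were in decile 10, with differences from −0.95 to −1.34 at this scaling. The third Ogdh probe (A_55_P2006277) and Dlat were in decile 7, at −1.11 and −0.44, below its median. Dlst was in decile 9 (median −0.86), Idh3a and the brighter Dld probe in decile 8 (median −0.58), Pdha1 in decile 7 and the second Dld probe in decile 5 (median −0.39). All 5 of these probes had positive differences. Of all probes, 6.62% passed as higher in decile 9, 11.1% in decile 8, 18.6% in decile 7 and 16.7% in decile 5.

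**Figure D4:**
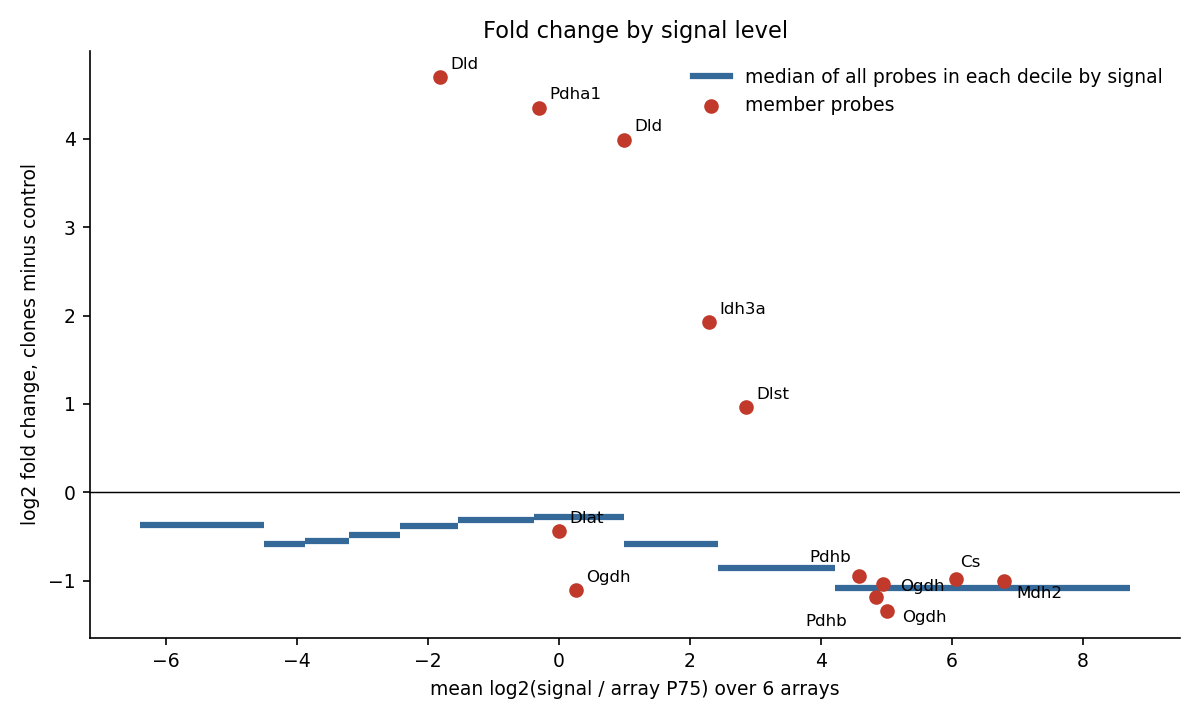
Log2 fold change of the clones over shControl (vertical axis) against the mean log2 signal over the 6 arrays (horizontal axis) for the 13 probes (points), with the median of all probes in each decile by signal (lines). The 6 probes in the top decile lie near its median of −1.09 at this scaling, and their signs turn with no scaling except for 1 Ogdh probe. Dld, Pdha1, Idh3a and Dlst lie above the lines of their deciles.

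Clone 3 minus clone 2 was the comparison without a control array, and it was within 1 slide. None of the 9 genes passed the test (limma, adjusted p from 0.276 to 0.814 over the 13 probes), 2 of the 13 probes had an unadjusted p under 0.05, and over the brightest probes of all genes 0.410% passed as higher and 1.09% as lower. Both clone 3 arrays lay above both clone 2 arrays for 8 of the 13 probes and below for 3, beside 56.4% and 18.6% of all probes. Clone 3 was 0.81 lower than clone 2 in Dld on the log2 scale (95% confidence interval −2.24 to 0.61), 1.04 lower in Pdha1 (−3.08 to 1.00) and 0.13 lower in Idh3a (−0.96 to 0.69). Clone 3 was 0.93 higher in Dlst (0.15 to 1.71, adjusted p = 0.320), and the 2 arrays of each clone did not overlap. The second Dld probe differed by −2.85 (−5.06 to −0.63, adjusted p = 0.276), and it passed with normexp (−2.47, adjusted p = 0.0154). For Pdhb, Dlat, Ogdh, Cs and Mdh2 the brightest probes were 0.29 to 0.55 higher in clone 3, where the median of all probes was 0.36. Except for Idh3a, the interval of the brightest probe of each member still reached a difference of more than 2-fold between the clones.

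The rest of the pathway was read from 53 genes in 5 lists, of which 47 were tested. These lists too were drawn up with earlier results of this comparison known, so their counts are not independent evidence of a direction. Counted by the brightest probe, 9 rose, 16 fell and 22 did not pass in the mean of the clones against shControl (limma, adjusted p under 0.05), beside 10.0% and 29.6% of all genes. Of the 9, Suclg2 and Pdk1 were well above background on 1 of 2 shControl arrays and entered the tests through the clone arrays, where they are high. After quantile normalization 9 rose and 4 fell, beside 13.3% and 14.4% of all probes. With no scaling 22 rose and 0 fell, but there the median difference of all probes was itself positive, so nothing is read from these counts. The falls in the following lists thus hold at the 75th percentile scaling. Leaving out 1 array, 6 rose and 8 fell without clone 2 replicate 1, 7 and 7 without clone 2 replicate 2, 4 and 0 without clone 3 replicate 1, 6 and 7 without shControl replicate 1, and 14 and 21 without shControl replicate 2. The 4 left without clone 3 replicate 1 were Suclg2, Idh3b, Ppm1k and Lipt1. Without clone 3 replicate 2 only Suclg2 passed, as higher. No share of all genes is given beside the counts with 1 array left out, so nothing is read from them. In clone 2 alone 6 rose and 18 fell, beside 10.1% and 33.1% of all genes. In clone 3 alone 4 rose and 1 fell, beside 4.24% and 4.53%. Both clones were set against the same shControl arrays. Between the clones none of the 47 passed by the brightest probe (limma), and 6 had an unadjusted p under 0.05. A dimmer probe of Pdp1 did pass and is described with the phosphatases.

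Among 12 other TCA cycle enzymes, 3 rose, 5 fell and 4 did not pass, with a median log2 difference of −0.54. Suclg2, the GTP-forming succinyl-CoA ligase beta subunit, read −0.16 and 0.39 in clone 2 and −0.25 and −1.16 in clone 3, against −4.33 and −2.39 in shControl, where 1 of 2 arrays was well above background. Its difference was 3.07 on the log2 scale (SE 0.56), 1.74 with normexp and 2.10 without shControl replicate 1. Suclg2 entered the tests through the clone arrays, where it is high, so this value is a description. Idh3b, the regulatory beta subunit that pairs with Idh3a, read 0.85 and 1.55 in clone 2 and −1.70 and −0.72 in clone 3, against −2.91 and −1.49 in shControl. It rose in the mean of the clones (2.20, SE 0.50, limma adjusted p = 0.019), although clone 3 overlapped shControl, and it did not pass without shControl replicate 1 (1.49, limma adjusted p = 0.085). Idh3g, the gamma subunit of the same enzyme, read 3.94 and 3.89 in clone 2 and 4.89 and 4.67 in clone 3, against 6.56 and 5.16 in shControl, and fell by 1.51 (SE 0.42, limma adjusted p = 0.029), which was −0.65 after quantile normalization and −0.81 without shControl replicate 1, where it did not pass. On the same array Idh3a over Idh3g was thus 10.8-fold higher in the clones (5.83-fold without shControl replicate 1), at 3.74 and 4.12 in clone 2 and 2.67 and 3.19 in clone 3, against −0.89 and 0.89 in shControl. Idh3a over Idh3b differed by −1.41 in clone 2 and 0.87 in clone 3. Sdhb, the iron-sulfur subunit of succinate dehydrogenase, fell by 1.57 at its brightest probe (SE 0.34, limma adjusted p = 0.017) and stood at −0.54 after quantile normalization, but its other probe rose by 1.29, so its direction is unsettled.

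Of 8 other subunits of the 2-oxoacid dehydrogenase complexes, 6 were tested, of which 0 rose, 3 fell and 3 did not pass. Pdhx, the protein that tethers the Dld product to the core of the pyruvate dehydrogenase complex, read −0.06 and −0.18 in clone 2 and 0.06 and 0.15 in clone 3, against 1.96 and 1.38 in shControl. It fell by 1.68 (SE 0.31, limma adjusted p = 0.013), with −1.49 after quantile normalization and −0.41 with no scaling. Mrps36, whose yeast counterpart tethers dihydrolipoamide dehydrogenase to the 2-oxoglutarate dehydrogenase complex, fell by 1.12 (SE 0.31, limma adjusted p = 0.029), but stood at 0.16 with no scaling and at −0.56 in its other probe, which did not pass. It did not pass when any 1 of the 4 clone arrays was left out, or without shControl replicate 1 (−0.83).

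Of 9 kinases and phosphatases that act on these complexes, 8 were tested, of which 3 rose, 1 fell and 4 did not pass, with a median of 1.09. Pdk1, a kinase that inhibits the pyruvate dehydrogenase complex by phosphorylating the product of Pdha1, read −0.94 and −1.12 in clone 2 and −1.15 and −0.88 in clone 3, against −4.95 and −2.45 in shControl, where 1 of 2 arrays was well above background. Its log2 difference was 2.68 (SE 0.62), 1.00 with normexp and 1.43 without shControl replicate 1. Pdk1 entered the tests through the clone arrays, where it is high, so this value is a description. Pdk2, another kinase of this family, read 0.42 and 0.09 in clone 2 and 1.49 and 1.27 in clone 3, against 3.12 and 1.92 in shControl, and fell by 1.71 (SE 0.40, limma adjusted p = 0.019), with −1.35 after quantile normalization and −1.11 without shControl replicate 1. Ppm1k, the phosphatase that activates the branched-chain complex, read 0.07 and 0.03 in clone 2 and −0.90 and 0.14 in clone 3, against −2.12 and −2.70 in shControl. It rose by 2.24 (SE 0.39, limma adjusted p = 0.012), and the clone arrays did not overlap shControl. The differences of Pdk1 and Pdk2 thus had opposite signs. Pdp1, a phosphatase that reactivates the pyruvate dehydrogenase complex, had probes that disagreed. Its dimmest tested probe (A_55_P2162394) read −1.76 and −1.13 in clone 2 and −4.15 and −3.56 in clone 3, against −4.56 and −4.28 in shControl, where 1 of 2 arrays was well above background. On that probe clone 3 differed from clone 2 by −2.41 (SE 0.40, limma adjusted p = 0.0323). The mean of the clones was 1.77 above shControl (SE 0.34), a description only, because that probe entered the tests through the clone arrays. Its brightest probe passed in neither comparison, with −0.42 between the clones and 0.37 against shControl, and the remaining probe stood at −0.11 and −0.85, also without passing.

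Of 8 genes of lipoylation and glycine cleavage, 6 were tested, of which 2 rose, 2 fell and 2 did not pass. Lipt1, which transfers lipoyl groups to the acyltransferases, read −1.62 and −1.32 in clone 2 and −1.19 and −1.40 in clone 3, against −3.75 and −2.85 in shControl. It rose by 1.92 (SE 0.35, limma adjusted p = 0.013), and by 0.92 with normexp. Lias, the lipoyl synthase, read 1.60 and 1.79 in clone 2 and 2.13 and 2.15 in clone 3, against 0.35 and 0.75 in shControl, and rose by 1.37 (SE 0.30, limma adjusted p = 0.017). Lipt1 and Lias were higher on all 4 clone arrays, and also passed in clone 3 alone. Mcat, an enzyme of mitochondrial fatty acid synthesis, which supplies the octanoyl precursor, fell by 1.51 (SE 0.42, limma adjusted p = 0.029), with −0.73 after quantile normalization and −0.82 without shControl replicate 1, where it did not pass. Gcsh, the lipoylated protein of glycine cleavage, fell by 1.17 (SE 0.33, limma adjusted p = 0.029) at its brightest probe, but stood at 0.11 with no scaling, and its other probe at −0.29 did not pass. Gcsh did not pass when any 1 of the 4 clone arrays was left out, or without shControl replicate 1 (−0.81).

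Of 16 genes of pyruvate entry, anaplerosis and cytosolic counterparts, 15 were tested, of which 1 rose, 5 fell and 9 did not pass. Pck2, the mitochondrial phosphoenolpyruvate carboxykinase, read −2.53 and −2.54 in clone 2 and −2.45 and −2.39 in clone 3, against −3.46 and −3.42 in shControl, and rose by 0.96 (SE 0.28, limma adjusted p = 0.032). With normexp its difference was 0.0023, and it did not pass when any 1 of the 4 clone arrays was left out. Pcx, the pyruvate carboxylase that makes oxaloacetate, read 1.73 and 1.73 in clone 2 and 2.87 and 2.43 in clone 3, against 4.48 and 3.29 in shControl, and fell by 1.70 (SE 0.40, limma adjusted p = 0.020), with −1.08 after quantile normalization and −1.10 without shControl replicate 1. Me3, a mitochondrial malic enzyme, fell by 1.84 (SE 0.41, limma adjusted p = 0.018), and its other probe by 1.13. The brighter one stood at −1.12 after quantile normalization and at −1.18 without shControl replicate 1. For Me1, the cytosolic malic enzyme, named after its values were seen, the brightest probe stood at −0.82 and did not pass, while its other probes (A_55_P2016842 and A_55_P2171413) rose by 2.73 and 0.96 (limma adjusted p = 0.0146 and 0.0374).

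**Figure D5:**
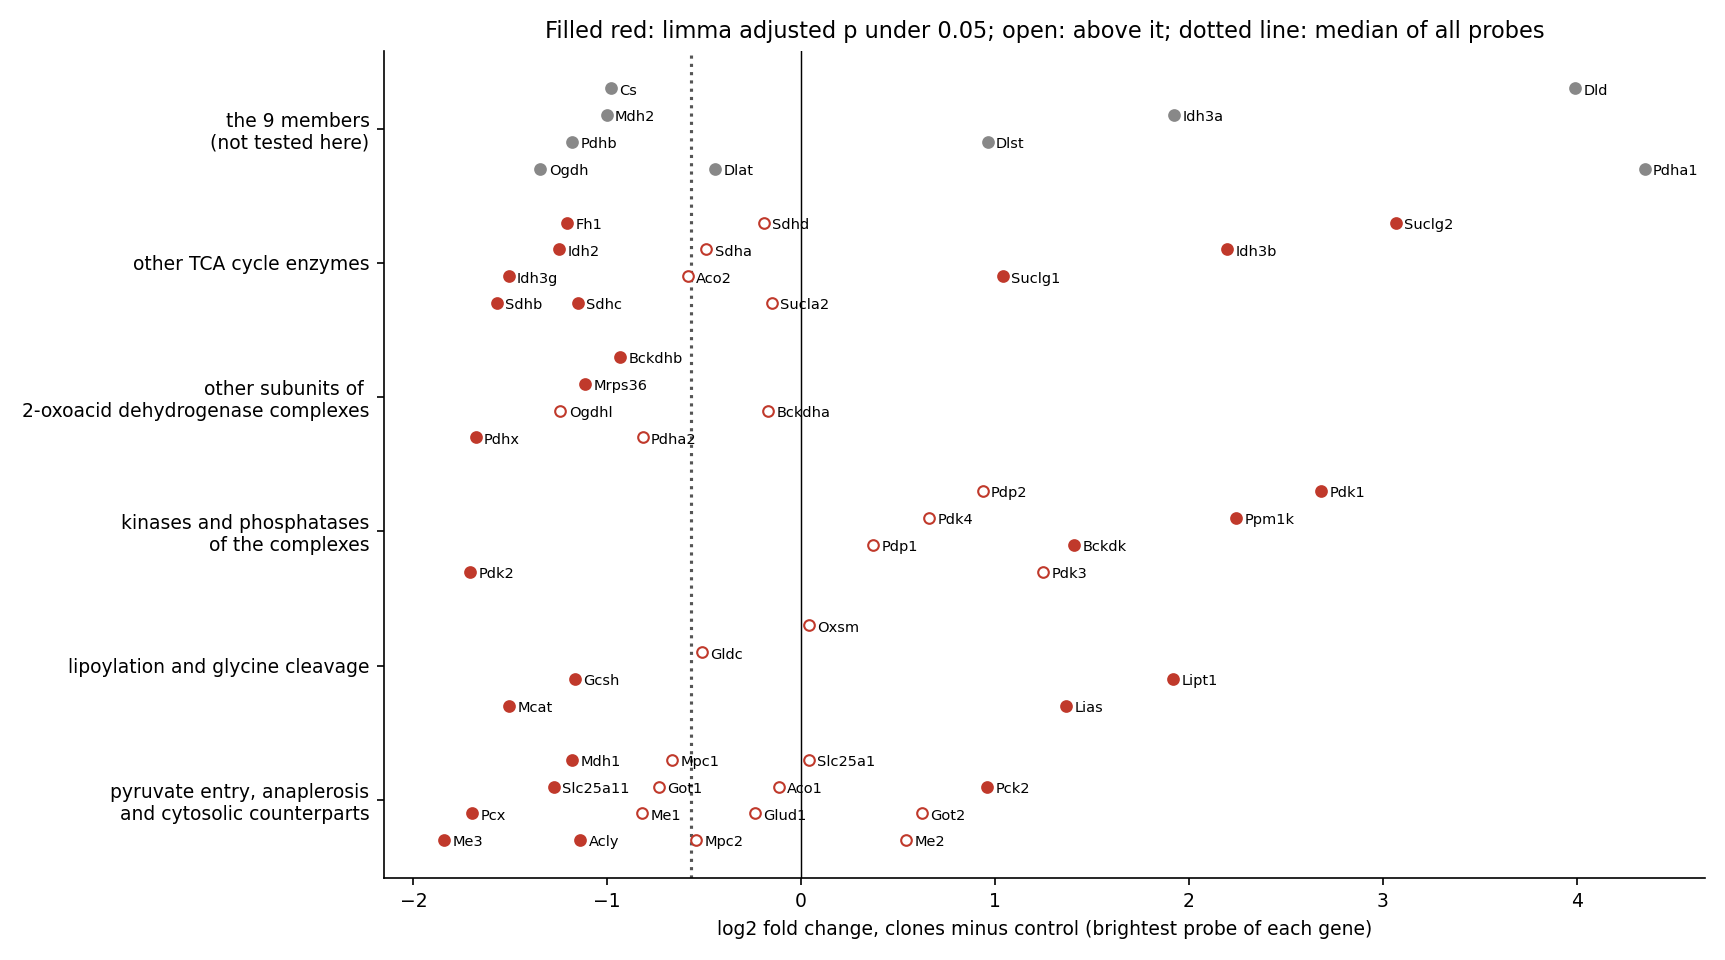
Log2 fold changes of the clones over shControl for the pathway genes by list, 1 point per gene at its brightest probe, filled red where the gene passed an adjusted p of 0.05 (limma), open where it did not and grey for the 9 members, with a dotted line at the median of all probes (−0.57). Of 47 genes 9 rose and 16 fell at the 75th percentile scaling, beside 10.0% and 29.6% of all genes. After quantile normalization 9 rose and 4 fell. With no scaling 22 rose and 0 fell, where the median of all probes was positive.

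Likeness to Dld was measured as the root mean square log2 distance over the 6 arrays, after each probe was centred on its own mean, among 12327 genes with a symbol and a brightest probe well above background on all arrays. The closest was Lrrc59, a ribosome-associated protein of the endoplasmic reticulum, at 0.22, with levels of 2.35 and 2.23 in clone 2 and 1.03 and 1.99 in clone 3, against −3.19 and −0.85 in shControl. Ajuba, a LIM domain protein of cell junctions, followed at 0.25, Tmem50a at 0.27, Polb, a DNA repair polymerase, at 0.28, and Eif4g2, a translation initiation factor, at 0.29. Of the other member genes, Idh3a came closest at 1.1 (rank 352) and Dlst next at 1.73 (rank 1602), while Pdha1 was not ranked because 1 shControl array was not well above background. The 5 closest genes share with Dld the low value of shControl replicate 1, the array that stood apart over the whole table. They were picked for a small distance from Dld over these arrays, so this shared value follows from the choice.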

How the data were processed

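RNA of 6 podocyte cultures was measured on one-colour Agilent arrays (Cy3), with groups and replicates as the sample titles give them. Each scanner file was deposited as an intensity per spot, already background-subtracted and detrended by Agilent Feature Extraction 11.0.1.1, per the file headers. A value table deposited for the series gives log2 values of 19819 probes, which were those with a spot well above background on all 6 arrays; its normalization is not stated by any source used here. Per the labels' protocols RNA was amplified and labelled before hybridisation. The number of arrays limits the precision.

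Symbols came by accession from RefSeq (27234 probes matched, 12195 did not), and probe positions were left aside. Each processed signal was divided by its array's 75th percentile (gene spots only) and put on the log2 scale. Spots of a probe were averaged, without control spots and spots marked as outliers. A probe entered the tests if more than 0.5 of its spots were well above background on each array of any 1 group. That left 25555 probes, less 14 whose spots were all marked as outliers on some array. limma, version 3.58.1, in R 4.3.3 with version 1.17.8 of data.table, fitted 3 group means over 25541 probes (3 residual and 4.61 prior degrees of freedom), with two-sided tests adjusted over all probes by Benjamini-Hochberg and a threshold of 0.05. With 4 arrays against 2, an exact permutation test cannot give a p below 0.0667, so none was run. On simulated data the fit returned the sizes of the changes put in, but called none of the smaller ones and most of the larger ones. Far fewer probes were changed there than passed in the real data, and the adjustment depends on that number. The simulated calls therefore do not give the power of the tests reported here. Probes of a gene were fitted separately, and gene counts use the brightest.

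The members and lists were chosen with earlier results of these data known. The genes named were all members, up to 2 rises and 2 falls per pathway list with the largest change past the threshold, any gene past it between the clones, the 5 genes most like Dld, and Tug1, Nphs1, Wt1 and Synpo. The alternatives were normexp background correction (offset 50), quantile normalization, centring on the median, other filters, the series values, 1 probe per gene, the replicate number as a block, leaving out each array, and no scaling, which was chosen after seeing the data. normexp was to use mean signals, but median signals were used instead. Replicate numbers did not pair the samples: the deviations of same-numbered arrays correlated at −0.034 for clone 2 and shControl, 0.12 for clone 3 and shControl and −0.091 for clone 3 and clone 2.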

Additional observations from a re-analysis of the deposited data

Results flagged for a closer look

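A dimmer probe of the phosphatase gene Pdp1 (A_55_P2162394) differed between the clones, with clone 3 minus clone 2 at −2.41 on the log2 scale (limma adjusted p = 0.0323). It read −4.15 and −3.56 in clone 3, near the −4.56 and −4.28 of shControl, where 1 of 2 arrays was well above background. The other Pdp1 probes, both brighter, stood at −0.42 and −0.11 and did not pass.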

How the results depend on the processing

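Values are for the mean of the clones against shControl unless a clone is named. The members were chosen on this comparison, so what follows describes how their values move and does not support them. The log2 difference of the brighter Dld probe ran from 3.11 to 5.26 over 16 settings. Of the 9 members, 4 fell by their brightest probe in the fit reported, against 2 after median centring or with no filter on dim probes, and 0 after quantile normalization, in the series values or with no scaling (a dimmer Ogdh probe, A_55_P2006277, passed as lower after quantile normalization and in the series values). In clone 2 against shControl 4 fell, against 2 after median centring and 0 after quantile normalization, in the series values or with no scaling. In clone 3 against shControl 4 rose and 0 fell, against 2 risen with no filter and 1 fallen with normexp. Of the pathway genes 16 fell, against 4 after quantile normalization and 4 in the series values. With no scaling 22 rose and 0 fell, where the median of all probes was positive. Over all probes 27.6% passed as lower in the fit reported, 56.9% with normexp and 14.4% after quantile normalization. Between the clones 0 pathway genes passed, against 1 fallen with normexp, with the replicate block or with no scaling. The cause of these changes was not tested. Differences that turned sign were Mdh2 (0.039 after quantile normalization, 0.052 in the series values, 0.27 with no scaling) and, with no scaling, Cs (0.29), Dlat (0.83), Pdhb (A_55_P1969776, 0.091, and A_55_P1953972, 0.32), Ogdh (A_55_P2006277, 0.17, and A_55_P2006281, 0.23), Mrps36 (0.16) and Gcsh (0.11). Leaving out 1 array at a time, members that rose numbered 1 to 4 and that fell 0 to 4, pathway genes that rose 1 to 14 and that fell 0 to 21. Members that rose in clone 2 numbered 3 and that fell 0 to 5, those in clone 3 numbered 0 to 4 both ways, and between the clones 0 members and 0 pathway genes passed. Without clone 3 replicate 2 only Dld passed among the members, and among pathway genes only Suclg2. By brightest probes the replicate block called the same members for the mean of the clones and for each clone against shControl, and between the clones the second Dld probe passed with it (adjusted p = 0.0295). Signal over background limits the second Dld probe, Pdha1, Suclg2 and Pdk1, which were well above it on 1 of 2 shControl arrays.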
